A study of Homo sapiens with 12 samples.

Results

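The EGR genes, the NR4A genes and 4 other immediate early genes were followed in U87 cells after 72 h with 3 compounds or vehicle. The group holds 10 genes, EGR1, EGR2, EGR3, NR4A1, NR4A2, NR4A3, IER2, IER3, KLF2 and KLF6, chosen by name from the 62757 rows of the deposited table, and all 10 passed the filter that left 15524 genes to be tested. U87, also called U87MG, is an established human glioblastoma cell line. Cells were given compound 1 at 30 µM, compound 4 at 10 µM, compound 5 at 5 µM or a vehicle whose makeup the labels do not give, in medium with fetal bovine serum, and poly(A) RNA was sequenced in 3 libraries per group, 12 in all, which the labels call independent biological replicates. The title of the series names taxodione and paclitaxel, but the labels tie no molecule to a number, so the compounds keep their numbers here. The doses differ, so any difference between compounds is one between the treatments as given. Each value is a regularized log (rlog) level, in log2 units. The rlog step pulls each gene towards its own mean, most strongly where reads are few, so differences of weakly expressed genes such as EGR3 are understated, and so is their spread.

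Immediate early genes are those that a cell can switch on from signals without first making new protein. Growth factors and stress act through MAP kinases and cyclic AMP on serum response factor, its ternary complex partners and CREB, which stand on these genes' promoters, and the transcripts are usually short-lived. The EGR proteins are zinc finger transcription factors that bind GC-rich sites and are held back by the NAB co-repressors. The NR4A proteins are orphan nuclear receptors that bind the NGFI-B response element and can act without a ligand. IER2 is a nuclear protein, IER3 (also known as IEX-1) is a stress and NF-kB responsive regulator of cell survival, and KLF2 and KLF6 are Krüppel-like zinc finger factors, of which KLF6 has been studied as a tumour suppressor in glioblastoma.

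Promoters are shown because signals are known to reach immediate early genes through short sites there: those of EGR1, EGR2 and NR4A1 for the size of their differences, and that of NR4A3 as a second receptor gene to set beside NR4A1. RefSeq start-site windows (GRCh38.p14) ran from 250 bases before a start to 50 bases from it. At least 1 window was searched for 7 of the 10 genes, and none was searched for EGR3, NR4A2 or IER3. That does not mean that EGR3, NR4A2 or IER3 lack a RefSeq start site, and their promoters stay undescribed here. The windows below are those of EGR1 (chr5:138465229-138465528, plus strand), of the EGR2 start nearest to the 3′ end of the gene (chr10:62816317-62816616, minus strand), of the downstream NR4A1 start (chr12:52037465-52037764, plus strand) and of NR4A3 (chr9:99821635-99821934, plus strand), read 5′ to 3′ on the strand of the gene, with motif matches in capitals.
EGR1: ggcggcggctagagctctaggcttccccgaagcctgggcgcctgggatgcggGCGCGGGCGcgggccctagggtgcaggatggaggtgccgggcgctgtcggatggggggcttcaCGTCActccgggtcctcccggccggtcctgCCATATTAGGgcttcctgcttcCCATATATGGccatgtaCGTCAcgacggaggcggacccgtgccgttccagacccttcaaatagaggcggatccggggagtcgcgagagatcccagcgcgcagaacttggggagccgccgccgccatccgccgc
EGR2: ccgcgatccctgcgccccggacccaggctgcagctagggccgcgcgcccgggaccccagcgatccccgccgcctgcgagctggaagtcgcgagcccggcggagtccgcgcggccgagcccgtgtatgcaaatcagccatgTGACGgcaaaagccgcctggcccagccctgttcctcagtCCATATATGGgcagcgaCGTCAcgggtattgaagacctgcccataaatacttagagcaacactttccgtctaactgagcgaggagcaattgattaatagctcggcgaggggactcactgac
NR4A1: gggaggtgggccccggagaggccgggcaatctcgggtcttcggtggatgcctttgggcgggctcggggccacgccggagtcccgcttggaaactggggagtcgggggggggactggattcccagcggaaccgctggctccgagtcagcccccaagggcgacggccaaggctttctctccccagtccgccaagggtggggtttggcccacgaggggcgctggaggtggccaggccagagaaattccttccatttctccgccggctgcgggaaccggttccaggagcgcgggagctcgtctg
NR4A3: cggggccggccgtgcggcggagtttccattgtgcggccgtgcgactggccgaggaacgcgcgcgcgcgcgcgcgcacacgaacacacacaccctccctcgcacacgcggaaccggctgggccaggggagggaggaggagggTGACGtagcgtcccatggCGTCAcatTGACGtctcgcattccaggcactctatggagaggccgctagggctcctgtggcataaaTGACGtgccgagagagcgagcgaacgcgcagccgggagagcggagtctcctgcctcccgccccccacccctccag

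Capitals mark CArG boxes, the sites of serum response factor, the EGR motif GCGNGGGCG and TGACG, the core of the cyclic AMP response element. The full element TGACGTCA, which holds that core, the NGFI-B response element AAAGGTCA and the TATA box TATAAA were searched too, all on both strands. The EGR1 window held 2 CArG boxes, at -105 to -96 and at -83 to -74 from the start, 1 EGR motif at -198 to -190 and 2 TGACG cores. The EGR2 window shown held 1 CArG box at -71 to -62 and 2 TGACG cores. Of the other EGR2 windows, 1 had no match and 1 had only an EGR motif, at 9 to 17. NR4A3 had 4 TGACG cores and both NR4A1 windows had no match to any of the 6 motifs. The NR4A1 gene runs on to chr12:52059507, and no window further 3′ in it was searched. A CArG box was found in 1.29% of 35114 RefSeq promoter windows of this length, the EGR motif in 9.43% and the TGACG core in 24.6%. Of the 7 genes with a searched window, EGR1 and EGR2 had a CArG box, EGR2 only in the window shown. KLF2 had 2 EGR motifs, KLF6 had 1 and IER2 had 1 TGACG core. These matches describe the letters of the windows and say nothing about binding.

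Libraries of a group lay close together, with a root mean square difference of 0.0606 to 0.0996 on the log2 scale within groups and 0.0922 to 0.218 between them. On the fourth principal component, replicate 1 of compound 5 (7.45) lay away from the other 2 libraries of that compound (-2.91 and -3.52). Of the line's markers VIM (16.00 in vehicle) and CD44 (15.12) were high and GFAP was at 5.74, while SOX2 (0.093) and S100B (0.77) were near 0. Of the leukocyte markers 1 of 8 had a mean of at least 3, and PTPRC and CD3E were near or below 0. Of 8 neuron markers 6 were tested: 0 were called with compound 1 by limma, 1 rose and 2 fell with compound 4, and 2 rose and 2 fell with compound 5, with SNAP25 at 0.55 and 0.61, MAP2 at -0.30 and -0.23, and the summed level of the list between 1707 and 1926 in all libraries. Their part in the results was not tested. In RNA from a whole culture, fewer cells that express a gene and less RNA of it per cell cannot be told apart. A list of 13 genes was used as a sign of RNA quality, with noncoding genes such as NEAT1 and coding genes such as DDX5. This list moved with treatment. Its summed level, on the linear scale, was 27745 to 32240 with compound 1, 31075 to 31548 with compound 4 and 30332 to 31977 with compound 5. In vehicle libraries it was 23760 to 26636. Of its 13 members 7 rose with compound 1, 7 rose and 1 fell with compound 4, and 9 rose with compound 5. Of 13 mitochondrially encoded mRNAs 3 rose with compound 1, 13 with compound 4 and 13 with compound 5, and none fell.

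All 10 genes were expressed in vehicle-treated cells, over a wide range. Per kilobase of transcript and on the linear scale, IER3 had the highest level at 2161 ± 55.1 (SD, n = 3), followed by EGR1 at 784 ± 44.1, KLF6 at 470 ± 14.1, KLF2 at 315 ± 20.1 and IER2 at 293 ± 10.3. NR4A2 stood at 202 ± 4.39, NR4A1 at 176 ± 5.58 and EGR2 at 148 ± 3.47, and NR4A3 (31.2 ± 1.51) and EGR3 (29.6 ± 1.04) were lowest. IER3 exceeded 93.3% and EGR1 80.9% of 12756 protein-coding genes, NR4A2 49%, and EGR3 16.4%. KLF2 and IER2 differed by less than the sum of their SDs, as did NR4A3 and EGR3, while the other neighbours in this order differed by more.

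**Figure D1:**
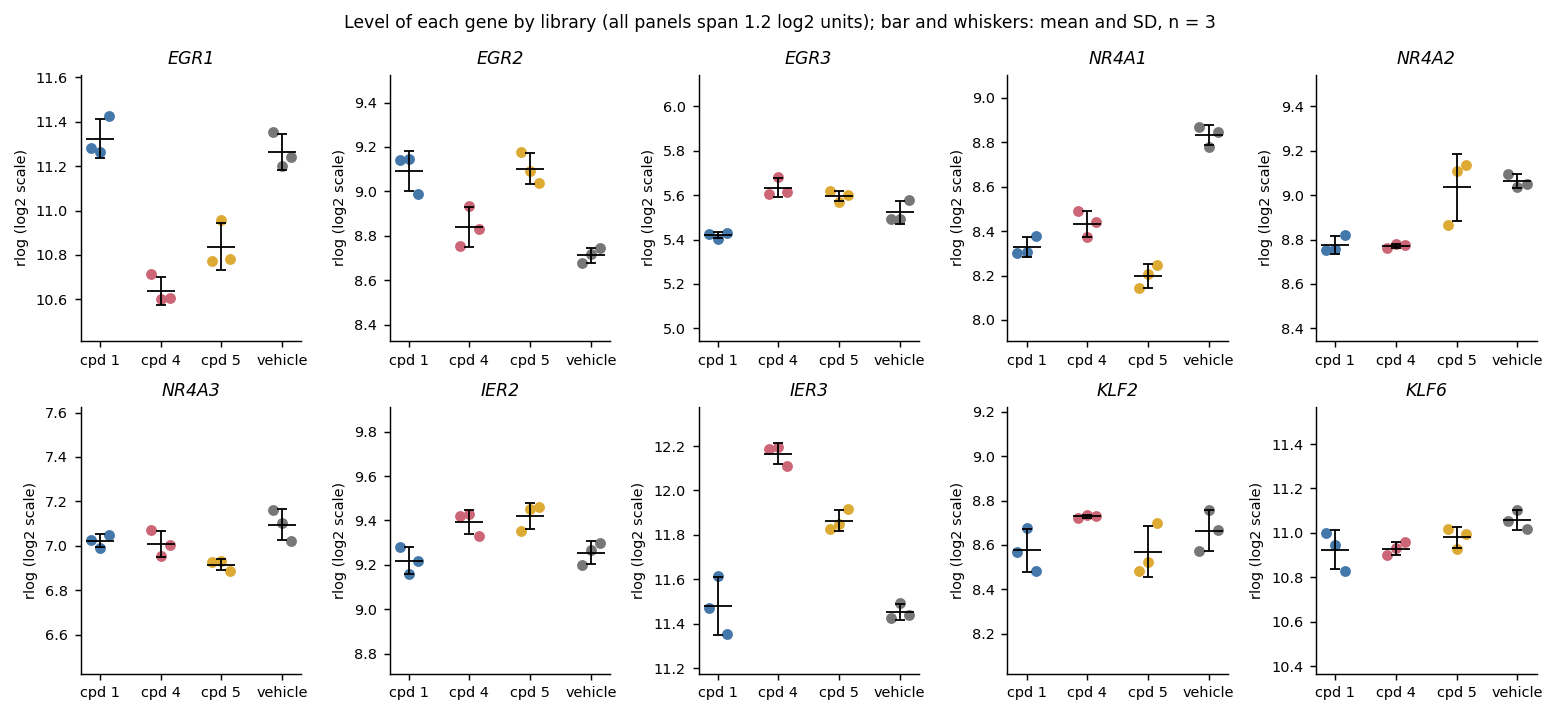
rlog level (log2 scale) of each gene in the 12 libraries, by treatment, with the mean and SD of 3 libraries; all panels span the same range. NR4A1 lay below vehicle in all 9 treated libraries, EGR1 lay below vehicle with compounds 4 and 5, and IER3 lay above it with compounds 4 and 5.

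Compared with vehicle, compound 4 at 10 µM moved 8 of the 10 genes, 4 up and 4 down, where 40.6% of all tested genes were called (19% higher and 21.6% lower, with calls made by limma at a Benjamini-Hochberg threshold of 0.05). Compound 5 at 5 µM moved 6, 3 up and 3 down, against 35.1% of all genes (15.9% higher and 19.2% lower). Compound 1 at 30 µM moved 4, 1 up and 3 down, against 10.9% of all genes (5.24% higher and 5.63% lower). The median absolute difference of the 10 genes was 0.13 with compound 4, 0.17 with compound 5 and 0.096 with compound 1, and that of all tested genes was 0.076, 0.068 and 0.044. Libraries did not overlap with vehicle for 8 genes with compound 4, 7 with compound 5 and 5 with compound 1, beside 53.4%, 44% and 29.9% of all genes. The 3 comparisons share the vehicle libraries, so their errors are not independent. The 10 genes were chosen with earlier results of these data known, so their counts beside these shares are a description only.

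EGR1, the best known of the EGR factors, was lower with compounds 4 and 5. Its rlog values were 11.28, 11.26 and 11.42 with compound 1, 10.71, 10.60 and 10.61 with compound 4 and 10.77, 10.96 and 10.78 with compound 5, against 11.35, 11.20 and 11.24 in vehicle. No library of compound 4 or 5 reached the lowest vehicle or compound 1 library. EGR1 fell by 0.62 on the log2 scale with compound 4 (SE 0.051, n = 3 per group, limma adjusted p = 1.07e-10). Turned to the linear scale from the rlog values, that is a fall of 35.1%. With compound 5 EGR1 fell by 0.43 (SE 0.051, limma adjusted p = 2.36e-07). With compound 1 the difference was 0.060 (95% interval -0.044 to 0.16), and compound 1 and vehicle libraries overlapped. The difference between the compounds as given was called for compound 4 against compound 1 (-0.68, adjusted p = 1.54e-11), for compound 5 against compound 1 (-0.49, adjusted p = 4.16e-08) and, more weakly, for compound 5 against compound 4 (0.20, adjusted p = 0.00527). That last call was lost without replicate 2 of compound 5, at 0.14 with a limma adjusted p of 0.0693, and without a filter on low values (0.0627).

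EGR2, known for its part in Schwann cell myelination, went the other way. It had 9.14, 9.15 and 8.99 with compound 1, 8.75, 8.93 and 8.83 with compound 4 and 9.18, 9.09 and 9.04 with compound 5, against 8.68, 8.72 and 8.74 in vehicle. All 9 treated libraries lay above the 3 vehicle libraries. EGR2 rose by 0.38 with compound 1 (SE 0.051, limma adjusted p = 1.29e-05) and by 0.39 with compound 5 (SE 0.051, adjusted p = 9.48e-07). Turned to the linear scale from the rlog values, these are rises of 30.0% and 31.0%. With compound 1, 99.71% of all tested genes had a smaller absolute difference. The rise with compound 4 was 0.13 (SE 0.051, adjusted p = 0.0468), close to the threshold, and the call was lost without replicate 1, 2 or 3 of vehicle (adjusted p = 0.156, 0.0845 and 0.0566), without replicate 2 or 3 of compound 4 (0.274 and 0.0811), without replicate 1 of compound 1 (0.0528) or replicate 2 of compound 5 (0.0516), and under 4 other settings (0.0611 to 0.143). Compound 4 lay below compound 1 (-0.25, adjusted p = 1.97e-04) and compound 5 above compound 4 (0.26, adjusted p = 3.67e-04), while compound 5 against compound 1 was at 0.010 (95% interval -0.093 to 0.11).

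EGR2 stood closer to EGR1 in treated libraries. Taken within each library, EGR2 minus EGR1 was -2.23 ± 0.18 on the rlog scale with compound 1, -1.80 ± 0.15 with compound 4 and -1.74 ± 0.14 with compound 5, against -2.55 ± 0.11 in vehicle (SD, n = 3 each). The highest vehicle library, at -2.48, lay below the lowest library of compound 1, at -2.44. The values describe a within-library difference of rlog levels and were not tested.

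EGR3, which shares the zinc finger family and acts in muscle spindles and lymphocytes, was weakly expressed and moved little. Its values were 5.42, 5.40 and 5.43 with compound 1, 5.60, 5.68 and 5.61 with compound 4 and 5.62, 5.57 and 5.60 with compound 5, against 5.49, 5.49 and 5.58 in vehicle. Compound 1 libraries lay below vehicle and compound 4 libraries above it, and compound 5 overlapped with vehicle. The rise with compound 4 was 0.11 (SE 0.035, limma adjusted p = 0.0132), and that call was lost without replicate 2 of compound 4 (adjusted p = 0.0881) or without replicate 1 or 2 of vehicle (0.0665 and 0.0599). With compound 1 the difference was -0.10 (95% interval -0.18 to -0.030, limma adjusted p = 0.0612), which passed under 3 other settings (0.0313 to 0.0487), and with compound 5 it was 0.074 (adjusted p = 0.105), which passed without replicate 3 of vehicle (0.0417). EGR3 was higher with compound 4 than with compound 1 by 0.21 (adjusted p = 1.77e-05) and with compound 5 than with compound 1 by 0.18 (adjusted p = 3.73e-04).

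**Figure D2:**
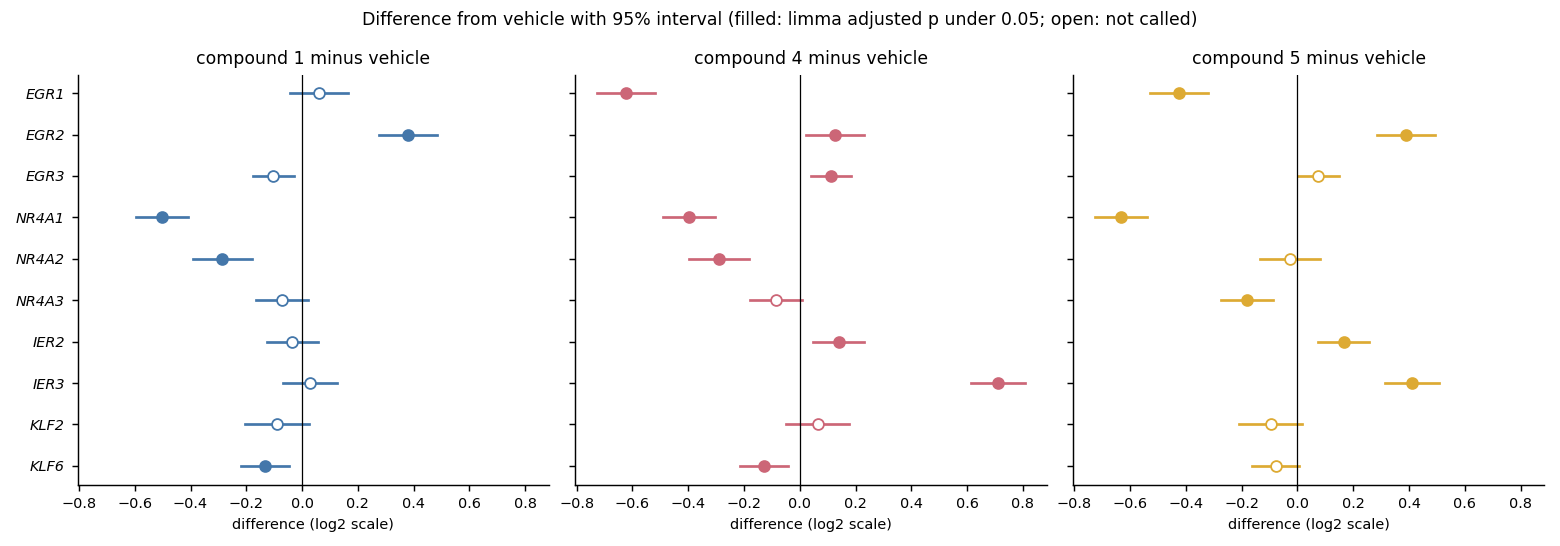
Difference of each gene from vehicle (log2 scale, compound minus vehicle) with its 95% interval from limma, 3 libraries per group; filled points passed an adjusted p of 0.05. NR4A1 lies left of 0 in all 3 panels, EGR1 with compounds 4 and 5, and EGR2 lies right of 0 in all 3.

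NR4A1, the receptor also called Nur77, was lower with all 3 compounds. It had 8.30, 8.31 and 8.38 with compound 1, 8.49, 8.37 and 8.44 with compound 4 and 8.14, 8.21 and 8.25 with compound 5, against 8.87, 8.78 and 8.85 in vehicle. Every treated library lay below the lowest vehicle library. NR4A1 fell by 0.50 with compound 1 (SE 0.045, limma adjusted p = 3.18e-08), by 0.40 with compound 4 (SE 0.045, adjusted p = 6.09e-08) and by 0.63 with compound 5 (SE 0.045, adjusted p = 2.92e-11). On the rlog scale it fell by 24.1% with compound 4 and fell by 35.5% with compound 5. With compound 1, 99.9% of all tested genes had a smaller absolute difference than NR4A1. Compound 5 lay below compound 4 by -0.23 (adjusted p = 3.82e-04). The step between compound 5 and compound 1 (-0.13, adjusted p = 0.0310) lost its call without replicate 3 of compound 1 (0.138) or replicate 1 or 2 of compound 5 (0.111 and 0.0553) and under 3 other settings (0.0578 to 0.0702). The step between compound 4 and compound 1 was not called (0.10, 95% interval 0.011 to 0.20, adjusted p = 0.0648), though it passed under 5 other settings (0.00892 to 0.0471).

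NR4A2, or Nurr1, a factor of dopamine neurons, was lower with compounds 1 and 4. Its values were 8.75, 8.76 and 8.82 with compound 1, 8.76, 8.78 and 8.78 with compound 4 and 8.86, 9.11 and 9.13 with compound 5, against 9.10, 9.04 and 9.05 in vehicle. Libraries of compounds 1 and 4 lay below all vehicle libraries, and replicate 1 of compound 5 lay below the other 2 libraries of its group. NR4A2 fell by 0.29 with compound 1 (SE 0.052, limma adjusted p = 5.87e-04) and by 0.29 with compound 4 (SE 0.052, adjusted p = 5.31e-05). With compound 5 the difference was -0.027 (95% interval -0.13 to 0.079), and 0.059 without replicate 1 of that group. NR4A2 was higher with compound 5 than with compound 1 (0.26, adjusted p = 3.73e-04) and than with compound 4 (0.26, adjusted p = 4.63e-04).

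NR4A3, or NOR1, was the weakest of the 3 receptors. It ranged from 6.99 to 7.05 with compound 1, from 6.96 to 7.07 with compound 4 and from 6.89 to 6.93 with compound 5, against 7.02 to 7.16 in vehicle. Compound 5 libraries lay below vehicle, and the other groups overlapped with it. NR4A3 fell by 0.18 with compound 5 (SE 0.046, limma adjusted p = 0.00289), and stood at -0.073 with compound 1 (95% interval -0.17 to 0.021) and -0.086 with compound 4 (95% interval -0.18 to 0.0081).

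IER3 had the largest rise of the 10 genes. It had 11.47, 11.61 and 11.35 with compound 1, 12.19, 12.20 and 12.11 with compound 4 and 11.83, 11.85 and 11.92 with compound 5, against 11.42, 11.49 and 11.44 in vehicle. Compound 4 libraries stood above compound 5 libraries, which stood above all libraries of compound 1 and vehicle. IER3 rose by 0.71 with compound 4 (SE 0.047, adjusted p = 1.58e-12 by limma), a factor of 1.64, and by 0.41 with compound 5 (SE 0.047, a factor of 1.33, adjusted p = 1.39e-07). With compound 1 it was at 0.027 (95% interval -0.069 to 0.12). Compound 5 lay below compound 4 by -0.30 (adjusted p = 2.66e-05). Within libraries, IER3 minus EGR1 was 0.16 ± 0.21 with compound 1, 1.53 ± 0.063 with compound 4 and 1.03 ± 0.12 with compound 5, against 0.19 ± 0.11 in vehicle (SD, n = 3 each).

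**Figure D3:**
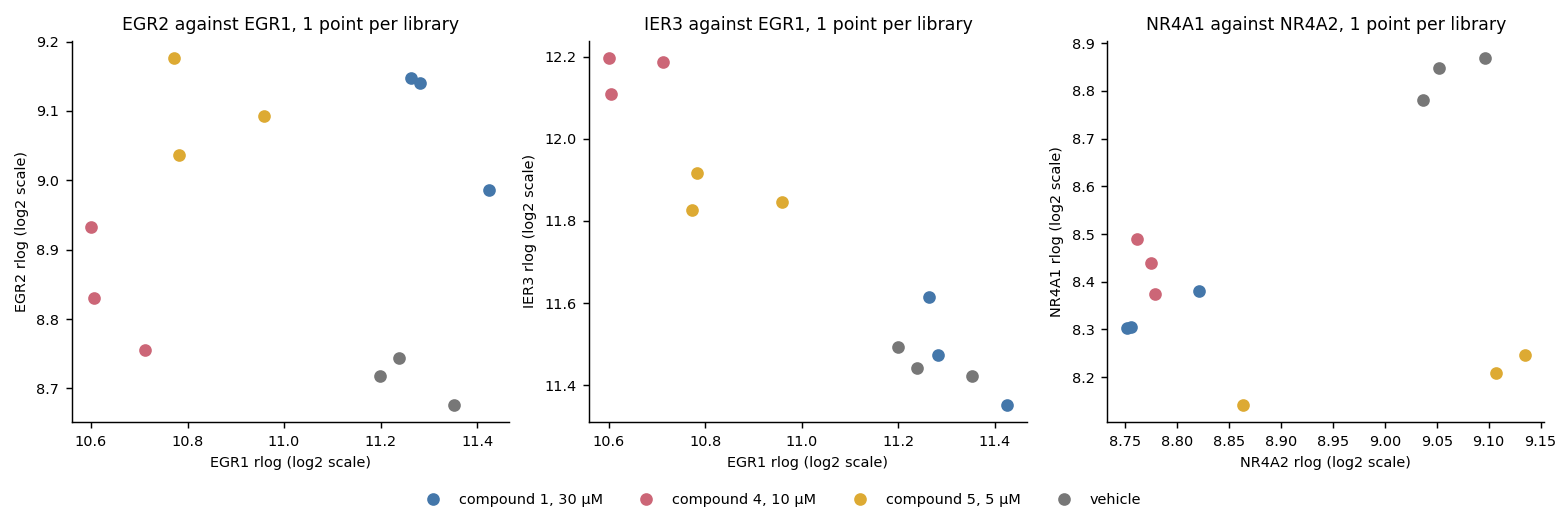
rlog levels (log2 scale) of 3 pairs of genes, 1 point per library, coloured by treatment. Compound 4 and 5 libraries have low EGR1 and high IER3, compounds 1 and 5 have the highest EGR2, and compound 5 replicates 2 and 3 combine vehicle-like NR4A2 with low NR4A1.

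Against vehicle, IER2 moved in the same direction as IER3 with compounds 4 and 5, by less. It ranged from 9.16 to 9.28 with compound 1, from 9.33 to 9.43 with compound 4 and from 9.35 to 9.46 with compound 5, against 9.20 to 9.30 in vehicle. Compound 4 and 5 libraries lay above vehicle, and compound 1 overlapped with it. IER2 rose by 0.14 with compound 4 (SE 0.045, limma adjusted p = 0.0142) and by 0.17 with compound 5 (SE 0.045, adjusted p = 0.00477), and stood at -0.035 with compound 1 (95% interval -0.13 to 0.057). The compound 4 call was lost without replicate 1 or 2 of compound 4 (adjusted p = 0.0614 and 0.0690) or replicate 1 of vehicle (0.0893).

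The Krüppel-like factors had the narrowest range of group means of the 10 genes. KLF6 ranged from 10.83 to 11.00 with compound 1, from 10.90 to 10.96 with compound 4 and from 10.93 to 11.02 with compound 5, against 11.02 to 11.10 in vehicle. It fell by 0.13 with compound 1 (SE 0.042, limma adjusted p = 0.0378) and by 0.13 with compound 4 (SE 0.042, adjusted p = 0.0148), and was at -0.078 with compound 5 (95% interval -0.16 to 0.0073). The call with compound 1 was lost without replicate 3 of compound 1 (0.253), replicate 1 or 2 of vehicle (0.0892 and 0.177) or replicate 1 of compound 4 (0.0507), and the call with compound 4 without replicate 1 of compound 4 (0.0721) or replicate 2 of vehicle (0.0823). Without a filter on low values these were at 0.159 and 0.0665, and after quantile normalization at 0.0772 and 0.104. Without a mean trend of the variances, the call with compound 1 was lost as well (limma adjusted p = 0.0559). KLF2, a factor of endothelial and lymphocyte quiescence, overlapped with vehicle in all 3 groups and was called in none of the 3 comparisons, at -0.090 with compound 1, 0.065 with compound 4 and -0.096 with compound 5 (SE 0.055 each). It was higher with compound 4 than with compound 1 (0.15, adjusted p = 0.0253) and lower with compound 5 than with compound 4 (-0.16, adjusted p = 0.0370). Neither call held throughout: leaving out replicate 1 or 3 of compound 1 gave limma adjusted p of 0.0670 and 0.157 for the first, leaving out replicate 1 or 2 of compound 5 gave 0.133 and 0.140 for the second, and leaving out any 1 of the compound 4 libraries ended both. Both were also lost without a filter on low values (limma adjusted p = 0.108 and 0.152), and the second without a mean trend of the variances (0.0675). Against vehicle, compound 5 passed at -0.16 without its replicate 3 (0.0294).

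Each difference was also fitted with the mean rlog level of the 13 RNA quality genes as a covariate. NR4A1 then stood at -0.56 with compound 1, -0.47 with compound 4 and -0.72 with compound 5, EGR1 at -0.70 with compound 4 and -0.51 with compound 5, EGR2 at 0.46 with compound 1, 0.24 with compound 4 and 0.51 with compound 5, and IER3 at 0.82 with compound 4 and 0.53 with compound 5, all still called. NR4A2 stayed called with compound 1 (-0.39) and compound 4 (-0.43). The calls of KLF6 with compound 1 (-0.046, limma adjusted p = 0.784) and compound 4 (-0.013, 0.920) were lost, as were those of EGR3 with compound 4 (0.069, 0.467), of IER2 with compound 4 (0.039, 0.756) and compound 5 (0.054, 0.735) and of NR4A3 with compound 5 (-0.12, 0.396). With it 3 of the 10 genes were called for compound 1, 5 for compound 4 and 4 for compound 5, beside 2.82%, 21.9% and 12.2% of all tested genes. The covariate was higher in every treated library (10.03 to 10.24) than in any vehicle library (9.84 to 10.02). Against vehicle, RNA quality and treatment therefore cannot be told apart by this fit, whether a call was kept or lost.

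Between compounds, 6 of the 10 genes differed for compound 4 against compound 1 (4 higher and 2 lower, where 42.7% of all genes were called, 20.9% higher and 21.8% lower), 6 for compound 5 against compound 1 (4 higher and 2 lower, against 30.1%, 13.9% and 16.2%) and 6 for compound 5 against compound 4 (3 higher and 3 lower, against 22%, 10.7% and 11.4%). The order of the group means, from high to low, was compound 1, vehicle, compound 5 and compound 4 for EGR1, and compound 5, compound 1, compound 4 and vehicle for EGR2. It was vehicle, compound 4, compound 1 and compound 5 for NR4A1, vehicle, compound 5, compound 1 and compound 4 for NR4A2, and compound 4, compound 5, compound 1 and vehicle for IER3. Neighbours in these orders were not called apart for compound 1 and vehicle in EGR1 and IER3, compounds 5 and 1 in EGR2, compounds 4 and 1 in NR4A1 and NR4A2, and vehicle and compound 5 in NR4A2. For EGR3, NR4A3, KLF2 and KLF6 no neighbours were called apart.

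Other parts of the pathway are given as counts of called genes in lists, each to be set beside the 10.9% of all tested genes called with compound 1 (5.24% higher and 5.63% lower), 40.6% with compound 4 (19% higher and 21.6% lower) and 35.1% with compound 5 (15.9% higher and 19.2% lower). The lists too were chosen with earlier results of these data known. Of 14 genes for serum response factor, its ternary complex partners and the CREB regulators, 0 were called with compound 1 (limma with Benjamini-Hochberg adjustment), 2 rose and 2 fell with compound 4, and 5 fell with compound 5. The 4 of 14 called with compound 4 are a lower share than the 40.6% of all genes, and the 5 of 14 with compound 5 are near the 35.1%. SRF itself rose by 0.18 and CREM by 0.18 with compound 4, while the ternary complex factor gene ELK4 fell by 0.27 with compound 4 and by 0.23 with compound 5. CREBBP, a CREB co-activator, fell by 0.19 and ELK1 by 0.12 with compound 5. The medians were -0.0088, 0.016 and -0.066 with compounds 1, 4 and 5, beside -0.0029, -0.0013 and -0.00095 over all tested genes.

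EGR4, the fourth family member, had a mean below 3 and was not tested. Among 12 tested genes of the list with the NAB co-repressors and reported EGR1 targets, 3 rose and 0 fell with compound 1, 4 rose and 4 fell with compound 4, and 5 rose and 4 fell with compound 5. NAB2, the co-repressor that EGR factors themselves induce and a gene singled out here after its value was seen, fell by 0.15 with compound 4 (adjusted p = 0.00276) and by 0.15 with compound 5 (adjusted p = 0.00254) and stood at -0.011 with compound 1. F3, the tissue factor gene, rose by 0.50 with compound 1, 0.79 with compound 4 and 0.93 with compound 5. The cyclin gene CCND1 rose by 0.71 with compound 4 and 0.43 with compound 5. VEGFA rose by 0.33 with compound 1, 0.37 with compound 4 and 0.39 with compound 5. Of 8 partners and reported targets of the NR4A receptors, 3 were tested. The retinoid X receptor genes RXRA and RXRB, whose products pair with NR4A1 and NR4A2, fell by 0.17 and 0.20 with compound 4 and by 0.15 and 0.15 with compound 5, and SPP1, the osteopontin gene, fell by 0.13 with compound 1 and rose by 0.39 with compound 4 and 0.25 with compound 5.

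Of 12 other Krüppel-like and IER genes tested, 3 rose and 7 fell with compound 4 (median -0.25), 3 rose and 7 fell with compound 5 (median -0.16), and 0 were called with compound 1 by limma (median 0.0087). KLF9, a glucocorticoid-responsive factor, fell by 0.40 with both compounds, KLF3 by 0.37 with compound 4 and 0.29 with compound 5, and KLF5 rose by 0.49 with compound 4. IER5L fell by 0.43 with compound 4. Among reported targets of KLF2 and KLF6, 0 rose and 2 fell of 9 with compound 1, 4 rose and 3 fell with compound 4, and 2 rose and 3 fell with compound 5. TXNIP, the thioredoxin-binding arrestin, fell by 1.35 with compound 4 and 0.70 with compound 5, and PLAU, the urokinase gene, rose by 0.91 and 0.59. CDKN1A, which encodes p21, fell by 0.20 with compound 1.

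Of 29 further immediate early genes outside the EGR, NR4A, IER, KLF and AP-1 families, 17 rose and 4 fell with compound 4 (median 0.27), 16 rose and 5 fell with compound 5 (median 0.13), and 2 rose and 2 fell with compound 1 (median 0.024). GADD45B rose by 1.13 with compound 4, the eIF2 phosphatase subunit gene PPP1R15A by 1.08, the synaptic gene ARC by 1.01 and RHOB by 0.76. CCN1, a matricellular protein gene, rose by 0.62 with compound 5, PLK2 by 0.43, MAFF by 0.39 and ARC by 0.37. All 8 AP-1 genes were called with compound 4, 5 higher and 3 lower. ATF3 (0.89), FOSL1 (0.60), FOSB (0.57) and JUN (0.48) led with compound 4. With compound 5, 3 rose and 3 fell, led by JUN (0.46) and FOSL1 (0.42) in the higher direction and FOSL2 (-0.33) and JUNB (-0.21) in the lower.

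**Figure D4:**
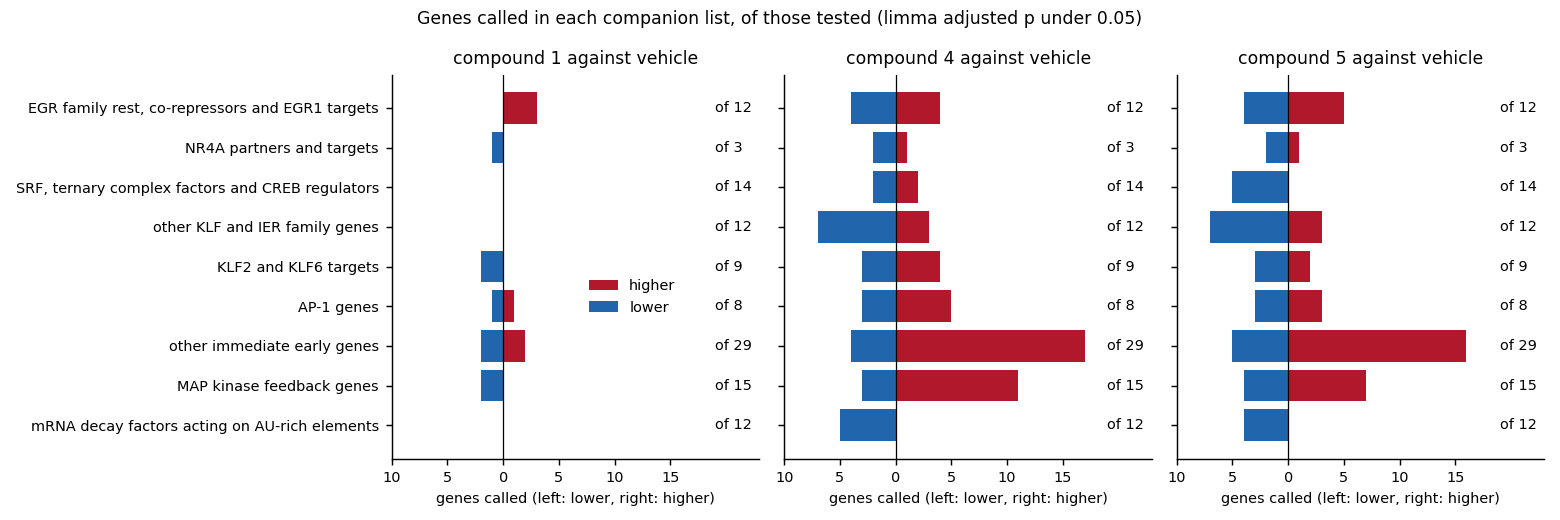
Number of genes called in each companion list against vehicle, lower to the left of 0 and higher to the right, with the number tested at the right edge of each panel. The other immediate early genes reach 17 higher calls with compound 4 and 16 with compound 5, and the list labelled mRNA decay factors has no higher call.

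MAP kinase feedback genes, which report on the pathway that induces EGR1, held 15 tested genes, of which 11 rose and 3 fell with compound 4 (median 0.26). The phosphatase genes DUSP1 (0.73), DUSP5 (0.57) and DUSP6 (0.51) and the inhibitor gene SPRY4 (0.51) led. With compound 5, 7 rose and 4 fell (median 0.067), including DUSP6 at 0.56 and ERRFI1, a feedback inhibitor of the EGF receptor, at 0.52. With compound 1, 0 rose and 2 fell, PHLDA1 (-0.14) and DUSP4 (-0.12). With compounds 4 and 5, EGR1 was lower while DUSP6 and SPRY4 were higher. Other genes of this list were lower there, 3 with compound 4 and 4 with compound 5. A link of EGR1 to these genes was not tested. Of 12 genes for proteins that bind AU-rich elements or take part in mRNA decay, 0 rose and 5 fell with compound 4. With compound 5, 0 rose and 4 fell, and with compound 1, 0 were called by limma. The 5 of 12 and 4 of 12 called with compounds 4 and 5 are near the 40.6% and 35.1% of all tested genes. CNOT1, the scaffold of the deadenylase complex, fell by 0.21 with compound 4 and 0.47 with compound 5, and ZFP36L1 by 0.29 and 0.11.

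Genes whose level followed a member most closely over the 12 libraries were taken by Pearson's r, as a description, since libraries of 1 group share their treatment. For EGR1 they were EBLN3P (r = 0.993), GOLGA2 (0.990), ANGPTL2 (0.988) and DLG4 (0.988). For NR4A1 they were AKR1C1 (0.972), TSC22D1 (0.957), CLPB (0.955) and RGS3 (0.952). IER3 ran with CXCL8 (0.990), IL1B (0.989), DUSP5 (0.989) and SERPINB2 (0.988). IL1B had means of 12.74 with compound 1, 15.44 with compound 4 and 14.11 with compound 5, against 12.91 in vehicle, the same order as IER3 except for compound 1 and vehicle. KLF6 had ADGRE5 (0.918), CTNNAL1 (0.914), DCTN3 (0.904) and ATP5F1C (0.902).

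The 10 genes did not vary as a block between libraries of the same treatment. Over their 45 pairs, Pearson's r of the deviations from the group mean (12 libraries) had a median of -0.091 and was above 0 in 19. EGR1 deviated with NR4A1 (r = 0.65), NR4A3 (0.64) and NR4A2 (0.47), and IER3 with KLF2 (0.80). EGR2 deviated against NR4A1 (-0.89) and EGR1 (-0.63), and EGR1 against KLF6 (-0.76). These values rest on 8 degrees of freedom and on libraries that share their depth and RNA quality between genes.

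**Figure D5:**
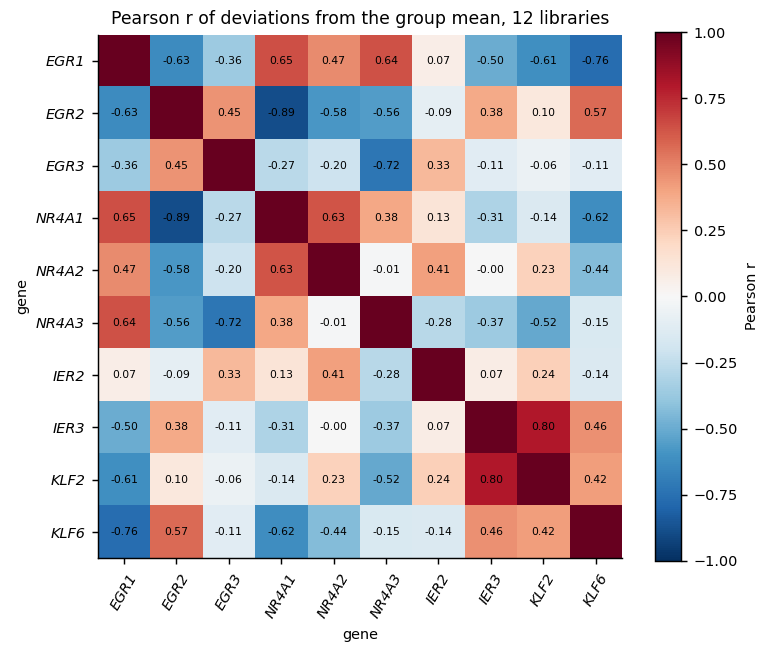
Pearson's r between genes of their deviations from the group mean over 12 libraries; red is positive and blue negative. EGR1 and the 3 NR4A genes are positive with each other except for NR4A2 with NR4A3 (-0.01), and EGR2 is negative with all 4 of them.

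In GENCODE 29 (GRCh38), EGR1 (ENSG00000120738.8) lies at chr5:138465490-138469315, EGR2 (ENSG00000122877.18) at chr10:62811996-62919900 and EGR3 (ENSG00000179388.9) at chr8:22687659-22693302. NR4A1 (ENSG00000123358.20) lies at chr12:52022832-52059507, NR4A2 (ENSG00000153234.16) at chr2:156324432-156342348 and NR4A3 (ENSG00000119508.18) at chr9:99821855-99866891. IER2 (ENSG00000160888.7) lies at chr19:13150415-13154908, IER3 (ENSG00000137331.12) at chr6:30743199-30744554, KLF2 (ENSG00000127528.6) at chr19:16324817-16327874 and KLF6 (ENSG00000067082.15) at chr10:3775996-3785281. Exons of EGR3, NR4A1, IER2 and IER3 overlap a noncoding gene on the opposite strand, and the sources used here do not give the strand setting of the counting. Those 4 noncoding genes had a mean rlog of at most 0.57 over the 12 libraries.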

How the data were processed

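Poly(A) RNA of 12 U87 libraries was sequenced. The submitters' processing notes name STAR 2.7.10a, DESeq2 1.30.1 and the build GRCh38. The counting tool, annotation, strand setting and filters were not given in the sources used here. The deposited values are regularized log values on the log2 scale, made by the authors. Of 62757 rows, 25759 were at 0 in all libraries. No counts were used, so depth per library is unknown and precision comes from the spread between libraries (median residual SD 0.0468, 8 degrees of freedom). Symbols were matched by Ensembl ID (62686 rows).

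Tests covered the 15524 genes whose mean reached 3, with limma 3.58.1 in R 4.3.3: 1 mean per group over all libraries, moderated variances with a mean trend, Benjamini-Hochberg adjustment over all genes, calls at an adjusted p under 0.05, 95% intervals. The test was checked on simulated data with independent normal noise for each gene, which hold no shift shared by the genes of a library. The linear scale is 2 to the power of the rlog value; levels per kilobase divide it by the median GENCODE 29 protein-coding transcript length. Of each companion list, up to 4 called genes with the largest absolute difference were named per compound (some are not reported here), and the 4 genes with the highest Pearson's r for EGR1, NR4A1, IER3 and KLF6. Members and lists were chosen with earlier results of these data known. Other settings were 2 filters, 2 scalings, only the groups compared, 2 variance models, library weights, a replicate block, an RNA quality covariate and leaving out each library. Tables and figures were made in Python 3.11.15 (matplotlib 3.10.9, pandas 2.3.3, numpy 2.4.6).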

Additional observations from a re-analysis of the deposited data

How the results depend on the processing

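Each of the 60 differences of the 10 genes (6 comparisons) was refitted under 22 other settings, 12 of which leave out 1 library. Of the 30 against vehicle, 17 kept their direction and side of the threshold in all 22: those of EGR1 and NR4A1 with all 3 compounds, EGR2 with compounds 1 and 5, IER3 with compounds 4 and 5, NR4A2 with compounds 1 and 4, IER2 and KLF2 with compound 1, KLF2 with compound 4 and NR4A3 with compounds 1 and 4. Over these settings EGR1 ranged from -0.70 to -0.58 with compound 4, NR4A1 from -0.72 to -0.60 with compound 5 and IER3 from 0.70 to 0.82 with compound 4. Of all 1320 refitted values, 55 lost and 10 gained a call and 22 changed sign. The cause was not tested. The signs that changed were all of differences that had not passed. Against vehicle they were NR4A2 with compound 5 (0.025 with library weights, 0.059 without replicate 1 of compound 5, otherwise down to -0.077 with 1 library left out), KLF6 with compound 5 (0.052 with the RNA quality covariate) and IER3 with compound 1 (-0.040 without replicate 2 of compound 1, up to 0.091 without replicate 3). For compound 4 against compound 1 they were KLF6 (-0.00482 median-centred, -0.034 with library weights, -0.043 to 0.042 with 1 library left out, including -0.0089), NR4A3 (0.0011 quantile-normalized, -0.044 to 0.014 with 1 library left out, including 0.0013) and NR4A2 (0.0051 with library weights, -0.016 to 0.018 with 1 library left out, including 0.000848). For compound 5 against compound 1 they were EGR2 (-0.031 with library weights, -0.042 to 0.043 with 1 library left out, including -0.027) and KLF2 (0.00435 with library weights, -0.071 to 0.045 with 1 library left out, including 0.037 and 0.017), and for compound 5 against compound 4 IER2 (-0.0043 without replicate 3 of compound 4, up to 0.062 with another library left out). The number of the 10 genes called for compound 4 was 5 with the RNA quality covariate and 5 to 8 with 1 library left out (5 without replicate 2 of compound 4 or replicate 1 or 2 of vehicle), against 8. It was 3 to 4 for compound 1 and 6 to 7 for compound 5 with 1 library left out. Companion genes called for compound 1 were 24, against 8 without a filter, 39 with library weights, 8 with the covariate and 13 to 36 with 1 library left out (14 without replicate 1 of compound 1, 13 and 15 without replicate 1 and 2 of vehicle). For compound 5 they were 93, against 50 with the covariate. Over all genes, 1688 were called for compound 1, against 800 without a filter, 2734 with library weights, 438 with the covariate and 849 to 2363 with 1 library left out; the covariate gave 3406 of 6300 for compound 4 and 1898 of 5443 for compound 5.

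The replicate block changed no call of the 10 genes (8, 6 and 4 called with compounds 4, 5 and 1). Same-numbered libraries of different groups deviated together with a median r of 0.015 (-0.22 to 0.25, 18 pairs). Other pairs had a median r of 0.0049 (-0.26 to 0.26, 36 pairs). Of 12 libraries, 6 correlated best with their own number. Whether same-numbered samples share more than a number cannot be decided from these values. Without counts, no depth limit can be given for EGR3 and NR4A3.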
